A study of Mus musculus with 12 samples.

Results

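The 40 genes described here encode proteins of mitosis and cell division. They were chosen by name, and each was read from the probe set (several short probes that together read 1 transcript) that had the highest mean over the 12 arrays among those assigned to that gene alone. Such a probe set was found for 38 of the 40 genes, out of 12393 genes and 22626 probe sets on the array. Ccnb1, a B-type cyclin, and Cdca8, a subunit of the chromosomal passenger complex, had none and are not analysed further as expression. RNA came from scrapings of the fundus, the acid-secreting part of the mouse stomach, and was read on 12 one-colour oligonucleotide arrays, 3 for each of 4 groups. The first group was gastrin knockout mice given gastrin by infusion over 1 week. The second lacked both gastrin and cholecystokinin (CCK). The third was gastrin knockout mice, male and 2 months old per the labels, given saline by infusion over 1 week. The fourth was wild type, each sample pooling about 2 to 4 mice. The labels give an age and sex only for the saline-infused group and describe no infusion in the double-knockout and wild-type mice, so infusion cannot be told apart from genotype in any comparison of an infused with an uninfused group. Both infused groups share the gastrin knockout, which the double knockout carries too. Nothing in the labels says whether the 3 arrays of a group were separate animals, and p-values here therefore speak only to the spread among those arrays, part of which may be technical.

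Cells enter mitosis when cyclin-dependent kinase 1, bound to A- and B-type cyclins, phosphorylates many proteins, and they leave it when the anaphase-promoting complex has those cyclins and the securin protein destroyed. Most mitotic genes are transcribed together late in the cell cycle, switched on by FOXM1 and B-MYB and kept off in resting cells by the DREAM complex, which reaches many of them through a promoter element called the cell cycle homology region. In fundic glands the dividing cells are progenitors that lie mostly in the isthmus between the pit and the neck, and gastrin, a hormone of the antrum, is known both for driving acid secretion and as a growth factor of this mucosa.

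The promoters of these genes are shown because the genes moved together across the arrays, as described further down. Whether the promoters have a part in that movement was not tested. A promoter window of 250 bases before to 50 bases after the annotated transcription start was given for 30 of the 40 genes (RefSeq, mouse build GRCm38.p6). The letters TTTGAA, the canonical cell cycle homology region, stood on either strand in 22 of the 30 windows (73.3%), against 18.1% of the windows of 27025 genes. The letters CCAAT, the core bound by nuclear factor Y, stood on either strand in 25 (83.3%), against 37.9% of all windows. Both were present in 21 (70.0%), against 7.12%, and neither in 4 (13.3%), against 51.1%. Of the genes with a cell cycle homology region, 20 held a match within 50 bases of the start. Of 18 genes with more than 1 CCAAT match, 7 held neighbouring matches 31 to 33 bases apart, and Ccnb2 held 3 matches at 33-base steps. Over all 30 windows 2 matches overlapped another. A match of letters is a description of the window and not a bound site. The 5 windows printed here run from 250 bases before to 30 bases after the start, 5′ to 3′ on the gene's strand, with matches to either motif in capitals. Prc1 (chr7:80294201-80294480, plus strand) shows 1 of each motif close to the start, Kif22 (chr7:127042391-127042670, minus strand) a pair of each, Mki67 (chr7:135716350-135716629, minus strand) 3 CCAAT matches followed by 2 of the homology region, and Ccnb2 (chr9:70421525-70421804, minus strand) the even spacing. Birc5 (chr11:117848987-117849266, plus strand), one of the genes with the largest differences between groups, held no match to either motif.
Prc1: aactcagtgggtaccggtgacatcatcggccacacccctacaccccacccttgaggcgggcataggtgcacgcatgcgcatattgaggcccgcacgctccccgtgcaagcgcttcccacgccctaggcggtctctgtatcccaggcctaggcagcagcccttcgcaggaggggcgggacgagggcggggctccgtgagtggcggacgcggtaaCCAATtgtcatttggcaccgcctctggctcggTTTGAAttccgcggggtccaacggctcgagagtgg
Kif22: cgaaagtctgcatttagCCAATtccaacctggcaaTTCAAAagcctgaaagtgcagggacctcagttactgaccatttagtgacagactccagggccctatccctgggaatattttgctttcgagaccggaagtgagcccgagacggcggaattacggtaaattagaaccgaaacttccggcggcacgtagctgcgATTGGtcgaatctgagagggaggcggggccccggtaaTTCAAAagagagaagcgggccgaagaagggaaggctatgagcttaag
Mki67: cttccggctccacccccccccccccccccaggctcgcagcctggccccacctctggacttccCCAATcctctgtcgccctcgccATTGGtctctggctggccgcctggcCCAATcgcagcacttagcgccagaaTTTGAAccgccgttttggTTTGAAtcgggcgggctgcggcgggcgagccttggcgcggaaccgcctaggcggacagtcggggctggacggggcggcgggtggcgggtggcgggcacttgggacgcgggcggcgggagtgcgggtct
Ccnb2: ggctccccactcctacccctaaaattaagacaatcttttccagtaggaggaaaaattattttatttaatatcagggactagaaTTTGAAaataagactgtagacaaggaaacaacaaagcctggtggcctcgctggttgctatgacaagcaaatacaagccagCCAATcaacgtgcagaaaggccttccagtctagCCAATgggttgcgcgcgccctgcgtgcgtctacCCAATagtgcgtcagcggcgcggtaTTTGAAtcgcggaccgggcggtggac
Birc5: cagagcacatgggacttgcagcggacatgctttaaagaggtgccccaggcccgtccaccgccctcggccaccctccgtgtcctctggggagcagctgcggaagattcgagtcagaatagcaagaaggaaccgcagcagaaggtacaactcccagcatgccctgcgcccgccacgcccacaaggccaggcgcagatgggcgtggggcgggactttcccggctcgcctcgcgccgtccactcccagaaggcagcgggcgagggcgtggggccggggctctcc

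**Figure D1:**
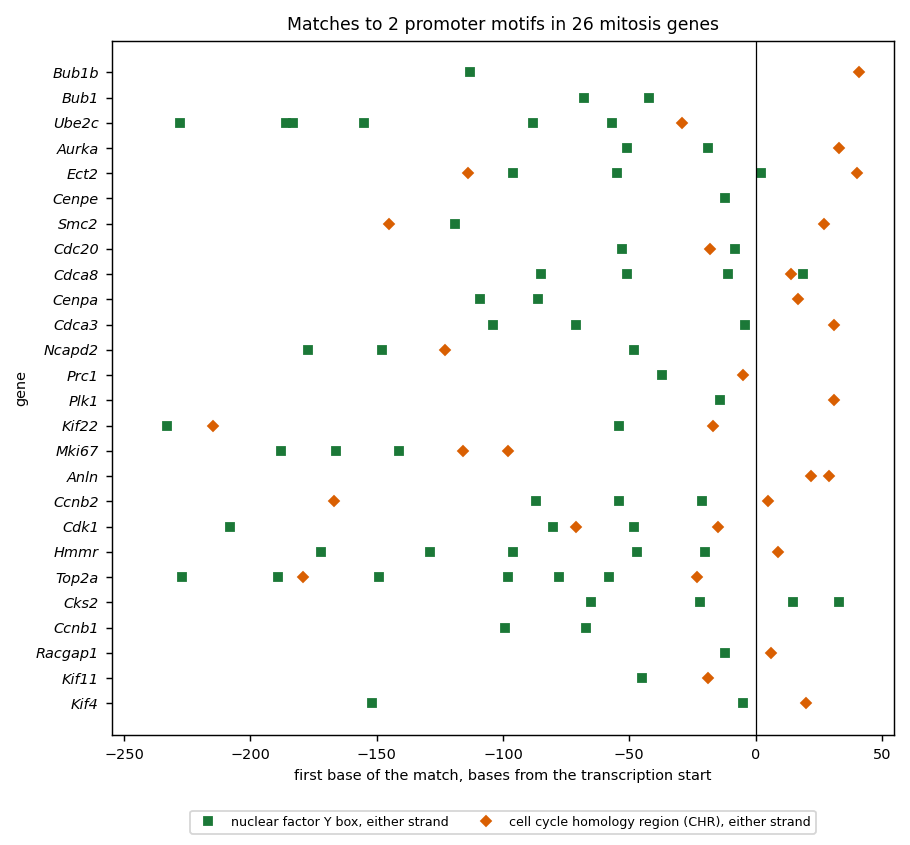
Matches to the CCAAT core bound by nuclear factor Y (squares) and to the cell cycle homology region (diamonds) in the 26 promoters that held either, by the distance in bases of the first base of the match from the transcription start. Matches of the homology region gather near the start, while CCAAT matches lie mostly before it.

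Before the results, the groups and arrays were checked. Gast, the gene deleted in all but the wild-type mice, had intensities of -72, -34 and -43 with gastrin infusion, -64, -35 and -162 in the double knockout, 37, -8 and 31 with saline infusion, and 596, 318 and 823 in wild type. Intensities are in arbitrary units. None of the 9 knockout values was above the noise of its array, taken as the size of the lowest percentile of that array, which is between 67.0 and 96.0. The infused hormone is a peptide and adds no transcript. Markers of parietal cells, the acid-secreting cells that define this mucosa, were above noise on all 12 arrays for 8 of 8 measured. Array medians lay between 403 and 421. Of the 38 genes, 33 were above noise on all 12 arrays, and Cdc25c, Melk, Bub1, Cenpe and Kif20a on some of them. In whole-tissue RNA, fewer dividing cells and less RNA per dividing cell cannot be told apart.

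The mitotic genes stood lowest in the gastrin-infused knockout. That group had the lowest of the 4 group means for 36 of the 38 genes, against 23.9% of all probe sets. The 36 include Bub1, whose mean of 47.0 tied with the saline-infused knockout, and Cdc25c, within noise on nearly all arrays. The 3 gastrin-infused arrays were the 3 lowest of the 12 for 14 genes (36.8%), against 1.6% of all probe sets. No other group held the 3 lowest arrays for any of the 38. Over all probe sets the shares were 3.47%, 2.51% and 1.13% for the double knockout, the saline-infused knockout and wild type. The 14 were the cyclin Ccna2, the kinases Aurkb, Pbk and Melk, Birc5 and Incenp of the chromosomal passenger complex, Top2a, Smc2, Ncapd2 and Mki67 of chromosome structure, the spindle genes Kif11, Hmmr and Stmn1, and Anln of cytokinesis. Differences between the other 3 groups were smaller, with medians over the 38 genes of -0.02 to 0.21 on the log2 scale, against a median of 0.00 over all probe sets.

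**Figure D2:**
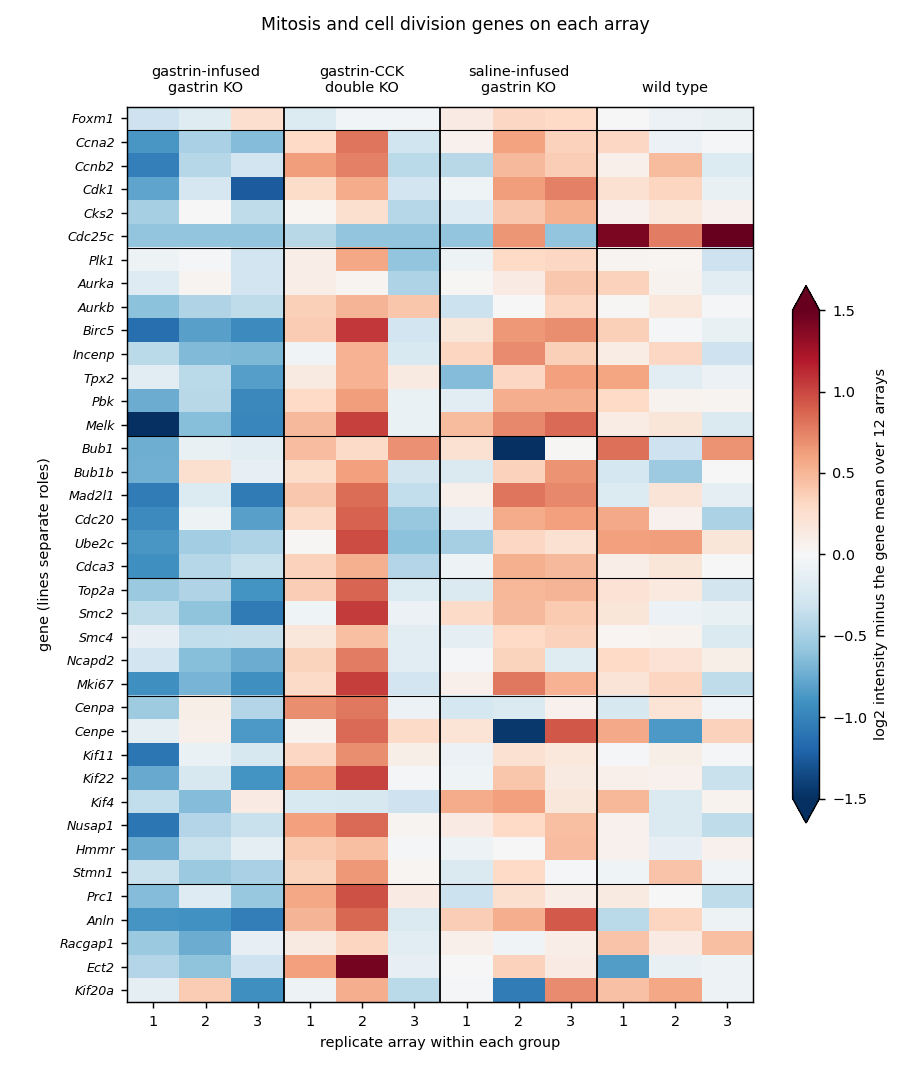
Log2 intensity of each of the 38 genes (rows, grouped by role) on each of the 12 arrays (columns, 3 per group), minus the gene's mean over the 12 arrays. The 3 arrays of the gastrin-infused knockout are mostly blue (low), and double-knockout replicate 2 and saline-infused replicates 2 and 3 are mostly red (high).

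The comparison of gastrin with saline infusion asks what the hormone changes in mice that make none, with genotype and infusion held the same. Of the 38 genes, 2 fell (limma, adjusted p under 0.05 after Benjamini-Hochberg adjustment over all 22626 probe sets) and 0 rose, while 0.473% of all probe sets fell and 0.773% rose. The difference was below 0 for 37 of 38, against 49.2% of all probe sets, with a median of -0.60, against 0.00 over all probe sets, and 25 genes had an unadjusted p under 0.05, against 16% of all probe sets. The groups did not overlap for 22 genes, all lower with gastrin, against 10.3% of all probe sets. The one gene above 0 was Bub1, a kinase of the spindle checkpoint, at 0.20 and with values within the noise on some arrays. Both calls were close to the threshold. They held without double-knockout replicate 2 or 3, when 5 and 3 genes were called, while Anln alone was called without wild-type replicate 2 and no gene without any other single array. The count was 0 with only the 2 groups compared, with the Gapdh covariate or with replicate number as a block. It was 1 with a floor of 1, 4 with quantile normalization, 9 with only bright probe sets and 11 with the intensity-trend and robust form. The median lay between -0.75 and -0.56 over all settings run, single arrays left out included.

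The 2 genes that fell encode a scaffold of the contractile ring and a kinase. Anln, anillin, which links actin, myosin and septins in the cleavage furrow, had intensities of 171, 169 and 154 with gastrin infusion, 450, 574 and 272 in the double knockout, 407, 460 and 599 with saline infusion, and 239, 396 and 301 in wild type. All 3 gastrin-infused arrays lay below the other 9. The saline-infused values all lay above those of wild type, and the double-knockout values overlapped both. The fall with gastrin against saline was -1.55 ± 0.28 on the log2 scale (SE, adjusted p = 0.0393), or 2.93-fold. Melk, a kinase abundant in dividing cells, had 61, 150 and 118 with gastrin infusion, of which the 61 lay within noise, 326, 474 and 218 in the double knockout, 323, 383 and 420 with saline infusion, and 251, 264 and 201 in wild type. Again the gastrin-infused arrays were the lowest 3, and the fall against saline was -1.86 ± 0.36 (SE, adjusted p = 0.0457).

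Birc5, Incenp, Pbk, Mki67, Ccna2, Cdk1 and Mad2l1 were the genes next after these by adjusted p, and none passed. Pbk had an adjusted p of 0.0862, Ccna2 of 0.105 and Cdk1 of 0.107. Array values follow for the other 4, of which Incenp, Mki67 and Mad2l1 had been picked by their p without against with gastrin and Birc5 by its call against the double knockout. Birc5, survivin, the subunit that places the chromosomal passenger complex on centromeres, had 428, 533 and 484 with gastrin infusion, 1216, 1945 and 765 in the double knockout, 1059, 1464 and 1510 with saline infusion, and 1198, 918 and 863 in wild type. The gastrin-infused arrays lay below all others, with a difference from saline of -1.47 (95% interval -2.16 to -0.78, adjusted p = 0.0567). Incenp, the scaffold of the same complex, had 500, 418 and 415 with gastrin infusion, 638, 952 and 564 in the double knockout, 828, 1083 and 848 with saline infusion, and 712, 822 and 533 in wild type. These again placed the gastrin-infused arrays lowest, at -1.04 against saline (adjusted p = 0.0618). Of 2 further Incenp probe sets above noise on all 12 arrays, 1 differed by 0.03 and 1 by -0.25 in the same comparison. In the same order they differed by 0.35 and 0.05 against wild type and by 0.39 and -0.21 against the double knockout. Neither passed in any of these, and the 3 probe sets disagree in size and in direction. Mki67, the antigen Ki-67, the usual marker of cycling cells in tissue sections, coats mitotic chromosomes and had 696, 813 and 695 with gastrin infusion, 1611, 2704 and 1077 in the double knockout, 1388, 2274 and 1889 with saline infusion, and 1503, 1652 and 1017 in wild type. It too was lowest on the gastrin-infused arrays, at -1.31 against saline (95% interval -2.05 to -0.56, adjusted p = 0.0936). Mad2l1, the checkpoint protein that holds back CDC20 until chromosomes are attached, had 201, 358 and 199 with gastrin infusion, 546, 743 and 320 in the double knockout, 437, 721 and 681 with saline infusion, and 359, 472 and 377 in wild type. Its gastrin-infused values overlapped only those of the double knockout, and the difference from saline was -1.30 (adjusted p = 0.110).

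**Figure D3:**
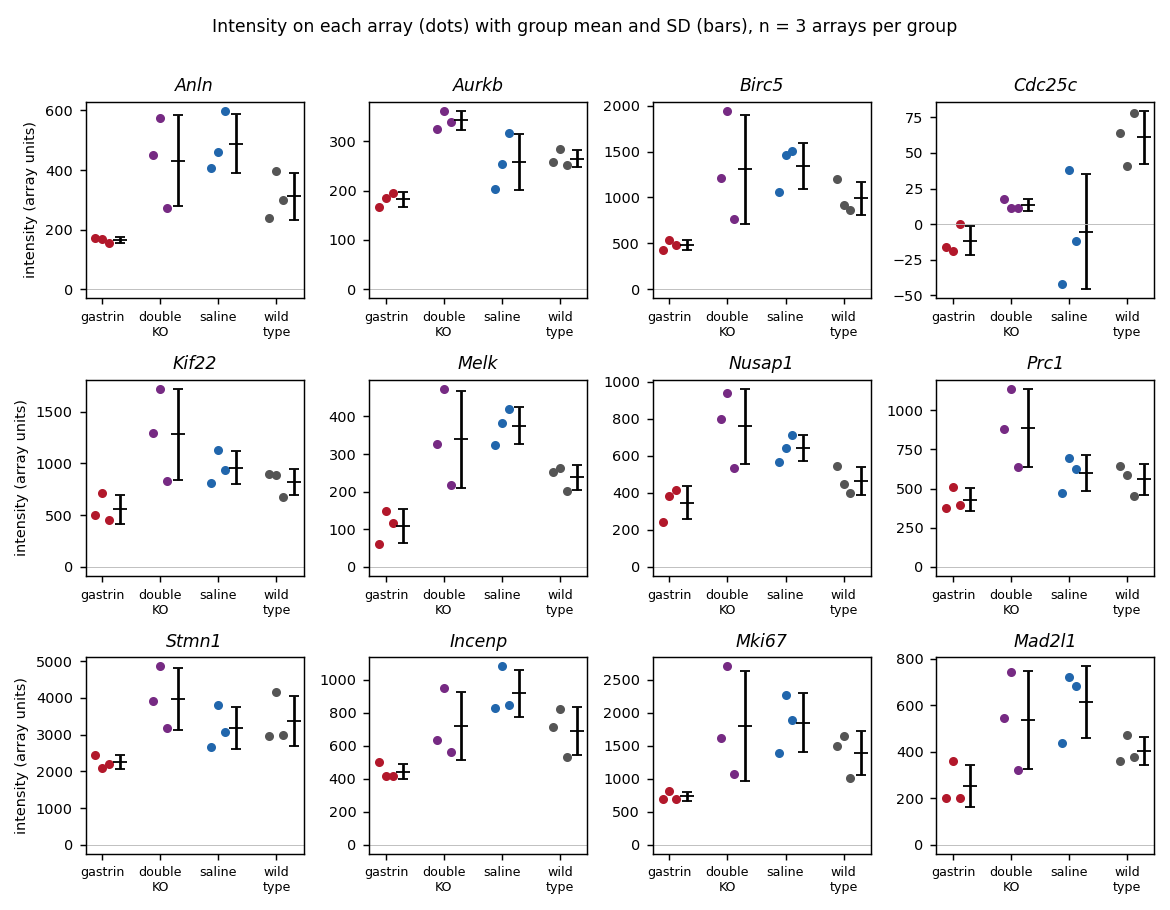
Intensity in array units on each array (dots), with the group mean and SD (bars, n = 3), for the 9 genes past the threshold in any comparison and the 3 with the next smallest p between groups without and with gastrin. For Anln, Melk, Aurkb, Birc5, Stmn1, Incenp and Mki67 the gastrin-infused dots lie below all other dots, and Cdc25c lies within the noise of nearly all arrays.

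By role, the cyclins and their partners were lower with gastrin than with saline for the 4 genes other than Cdc25c (Ccna2, Ccnb2, Cdk1 and Cks2), with 0 called. Ccna2, cyclin A2, averaged 1175 ± 157 with gastrin infusion, 2342 ± 868 in the double knockout, 2375 ± 447 with saline infusion and 1966 ± 304 in wild type (SD, n = 3 each). Cdk1, the kinase itself, averaged 595 ± 204 with gastrin infusion, 1130 ± 318 in the double knockout, 1355 ± 376 with saline infusion and 1082 ± 165 in wild type, so that for both genes the gastrin-infused mean was the lowest. Ccnb2, cyclin B2, and Cks2, a small subunit that binds the kinase, differed by -0.72 and -0.54 from saline. Cdc25c, the phosphatase that activates the kinase, gave no usable level: its values were -16, -19 and 0 with gastrin infusion, 18, 11 and 11 in the double knockout, -42, 38 and -12 with saline infusion, and 64, 41 and 78 in wild type, and 1 of the 12 was above the noise of its array.

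The mitotic kinases and the passenger complex were lower with gastrin than with saline in 8 of 8 (median -0.78, 1 called). Aurka and Plk1, which mature centrosomes and build the spindle, differed by -0.33 and -0.31, and Aurkb, the kinase of the passenger complex, by -0.48, whereas Pbk, a kinase of mitotic cells, differed by -1.01. Tpx2, which activates Aurora A on microtubules, differed by -0.55. Of the spindle checkpoint and anaphase-promoting complex genes, 5 of 6 were below 0 (median -0.75, 0 called). Cdc20, the activator of that complex, averaged 528 ± 185 with gastrin infusion, 973 ± 457 in the double knockout, 1019 ± 262 with saline infusion and 844 ± 299 in wild type. Ube2c, its ubiquitin-conjugating enzyme, Cdca3, which promotes mitotic entry, and the checkpoint protein Bub1b differed from saline by -0.63, -0.87 and -0.47. Of 2 further Cdca3 probe sets above noise on all arrays, 1 differed from saline by -0.22 and 1 by 0.52, and neither passed.

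The genes of chromosome structure were lower with gastrin than with saline in 5 of 5 (median -0.90, 0 called), each with an unadjusted p under 0.05. Top2a, topoisomerase II alpha, which untangles sister chromatids, averaged 592 ± 90.6 with gastrin infusion, 1216 ± 442 in the double knockout, 1124 ± 290 with saline infusion and 944 ± 164 in wild type. The condensin subunits Smc2, Smc4 and Ncapd2 differed from saline by -1.07, -0.45 and -0.60. Of the centromere, kinesin and spindle genes 8 of 8 were below 0 (median -0.56, 0 called), and Cenpa, the centromeric histone, was among the least different, at -0.16. The motor genes Kif11, Kif22, Kif4 and Cenpe differed by -0.58, -0.80, -0.75 and -0.21, and Hmmr, a spindle-associated protein, by -0.54. The central spindle and cytokinesis genes were below 0 in 5 of 5 (median -0.51, 1 called). In that group Racgap1 and Ect2, which together switch on RhoA at the cleavage site, differed by -0.51 and -0.60, Prc1, the microtubule bundler of the midzone, by -0.47, and the kinesin Kif20a by -0.11.

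Read from the brightest of its 4 probe sets, Foxm1, the transcription factor that activates many of the others, was among the genes that differed least. It had intensities of 651, 708 and 960 with gastrin infusion, 698, 780 and 779 in the double knockout, 879, 996 and 987 with saline infusion, and 804, 755 and 744 in wild type. The gastrin-infused values overlapped those of every other group. Its differences of gastrin infusion from saline, the double knockout and wild type were -0.32 (95% interval -0.62 to -0.02), 0.02 (-0.28 to 0.32) and -0.01 (-0.31 to 0.29). None passed the threshold. The next brightest Foxm1 probe set, above noise on 11 arrays, differed by -0.46, -0.68 and -0.43 in the same order, and none passed. The Foxm1 probe sets therefore do not settle whether this transcript differed less than the others.

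The gastrin-infused knockout was also set against the double knockout, a comparison added after the values had been seen and one in which infusion, gastrin and CCK all differ. Here 8 of the 38 genes fell and 0 rose, against 3.08% of all probe sets that fell and 2.75% that rose, 37 were below 0 (48.4% of all probe sets), and the median was -0.82. The groups did not overlap for 21 genes, against 13.2% of all probe sets. The 8 were Anln, Melk, Aurkb, Birc5, Kif22, Nusap1, Stmn1 and Prc1. The count was 15 without double-knockout replicate 3, 6 without saline-infused replicate 1, 5 without wild-type replicate 1 or 3, 4 without saline-infused replicate 3 or wild-type replicate 2, 3 without saline-infused replicate 2, 2 without gastrin-infused replicate 2 or 3, and 1 without double-knockout replicate 1 or 2 or gastrin-infused replicate 1. It was 1 with only the 2 groups compared, 2 with the Gapdh covariate and 5 with median centring or the mean of all probe sets. It was 15 of the 25 genes kept with bright probe sets, and 18 with the trend form. Over all probe sets the count was 1319 in the main fit, 541 to 1212 with 1 array left out and 295 to 1775 under the other settings. Markers of other cells were called between the same 2 groups. Surface mucous markers rose in 4 of 4 (Muc5ac, Gkn1, Gkn2 and Tff1), with sums of 351859 to 390355 with gastrin infusion and 230962 to 247640 in the double knockout. Of 4 chief-cell markers Pgc and Chia1 rose and Pga5 fell, 5 of 8 parietal and 4 of 4 enterochromaffin-like markers rose, and Hbb-b2 of red blood cells rose by 2.40 (adjusted p = 0.00263). Their part in the mitotic differences was not tested.

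Aurkb, Aurora B, was the one gene of the 8 that stayed past the threshold whichever array was left out, with adjusted p between 0.00657 and 0.0410. It had 166, 186 and 196 with gastrin infusion, 325, 362 and 340 in the double knockout, 204, 254 and 317 with saline infusion, and 258, 285 and 252 in wild type. The 3 gastrin-infused arrays were the lowest and the 3 double-knockout arrays the highest of the 12. The difference was -0.91 ± 0.15 (SE, adjusted p = 0.0116), a 1.88-fold fall.

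Among the spindle genes, Nusap1, which bundles microtubules near chromosomes, had 245, 384 and 413 with gastrin infusion, 800, 939 and 536 in the double knockout, 569, 643 and 714 with saline infusion, and 544, 448 and 399 in wild type. Kif22, the kinesin that pushes chromosome arms, had 501, 718 and 456 with gastrin infusion, 1293, 1716 and 830 in the double knockout, 811, 1133 and 934 with saline infusion, and 894, 886 and 674 in wild type. For both genes the gastrin-infused arrays lay below those of the double and the saline-infused knockout and overlapped wild type. Nusap1 fell against the double knockout by 1.12 on the log2 scale (adjusted p = 0.0356) and Kif22 by 1.16 (adjusted p = 0.0442). Stmn1, stathmin, which destabilises microtubules until mitotic kinases phosphorylate it, had 2457, 2099 and 2207 with gastrin infusion, 3905, 4862 and 3172 in the double knockout, 2668, 3811 and 3071 with saline infusion, and 2957, 4153 and 2993 in wild type. Its 3 gastrin-infused values were the lowest, and it fell against the double knockout by 0.80 (adjusted p = 0.0488). Prc1 had 376, 513 and 397 with gastrin infusion, 881, 1138 and 639 in the double knockout, 471, 694 and 628 with saline infusion, and 644, 584 and 451 in wild type. It was separate from the double knockout only, with a fall of 1.02 (adjusted p = 0.0434). Against the double knockout, Anln differed by -1.33 (adjusted p = 0.0294), Melk by -1.65 (adjusted p = 0.0312) and Birc5 by -1.34 (adjusted p = 0.0372).

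Against wild type, the gastrin-infused knockout had 0 of the 38 genes called by limma, with 0.11% of all probe sets called in either direction. The smallest adjusted p above noise was that of Racgap1, 0.164. The intensity-trend and robust form of the test also called 0, and 1 gene was called without saline-infused replicate 2. The difference was below 0 for 37 genes, against 50.6% of all probe sets, with a median of -0.60, and 17 had an unadjusted p under 0.05, against 11.6%. The groups did not overlap for 22, against 9.41% of all probe sets. Racgap1 averaged 453 ± 104 with gastrin infusion and 784 ± 94.9 in wild type (SD, n = 3 each). Its difference was -0.81 (95% interval -1.21 to -0.41), and those of Birc5 and Melk were -1.03 and -1.21. Bub1b, Foxm1 and Plk1 differed least, at 0.07, -0.01 and -0.05, and the interval of Plk1, -0.64 to 0.54, leaves room for a difference in either direction. The comparisons with saline infusion, the double knockout and wild type share the 3 gastrin-infused arrays, so low values on those arrays enter all of them.

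**Figure D4:**
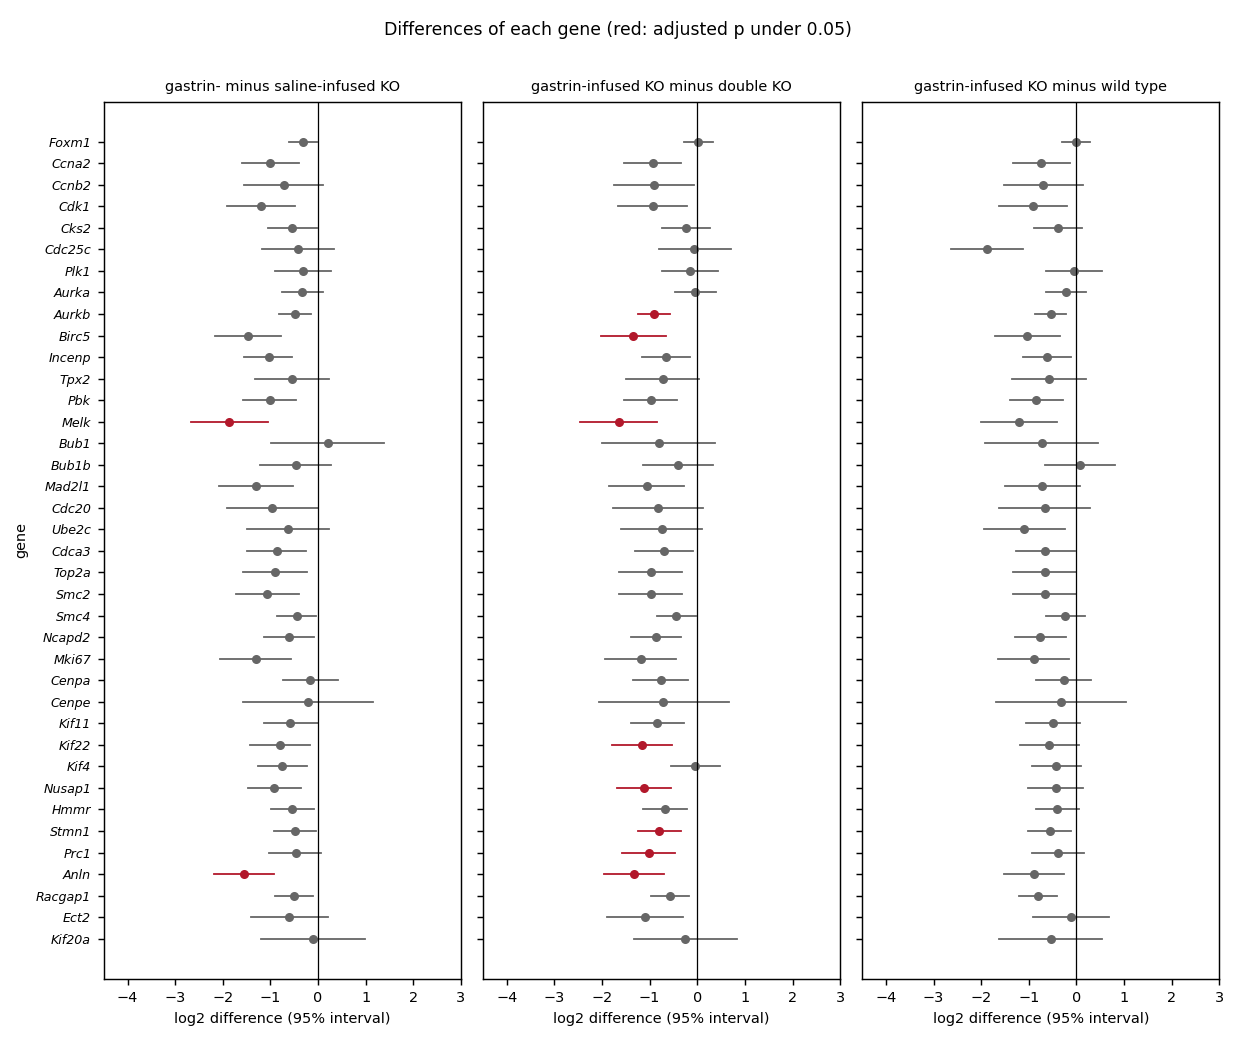
Log2 difference of each gene (dots, with 95% intervals) between the gastrin-infused knockout and the saline-infused knockout, the double knockout and wild type, with genes past the threshold in red. In each panel 37 of 38 dots lie below 0, and 2, 8 and 0 are red.

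The 2 groups without gastrin were also each set against wild type. With saline infusion, the gastrin knockout had 0 of 38 genes called by limma against wild type (2.08% of all probe sets called in either direction), 3 had an unadjusted p under 0.05 (17.8% of all probe sets), and the median was 0.21. The intensity-trend and robust form also called 0, and 1 gene was called without saline-infused replicate 2. The groups did not overlap for 7 genes higher and 2 lower, against 10.9% and 12.4% of all probe sets. Anln and Melk differed by 0.66 (95% interval 0.03 to 1.29) and 0.65 (-0.15 to 1.46), with adjusted p of 0.262 and 0.372. In the double knockout against wild type the median was 0.20 and 1 gene, Cdc25c, was called, lower, against 4.14% of all probe sets called in either direction. All 3 double-knockout values of Cdc25c were within noise and 1 wild-type value was above it, so no fold is given. Ect2, the RhoA exchange factor, had 326, 574 and 195 in the double knockout and 119, 197 and 202 in wild type, a difference of 0.98 (95% interval 0.18 to 1.78) that did not pass (adjusted p = 0.169). The median of the double knockout against wild type was -0.02 without double-knockout replicate 2 and 0.42 without replicate 3. The double knockout and the saline-infused knockout, which differ in CCK and in infusion, had 0 of 38 called by limma (5.98% of all probe sets in either direction, 5 genes at an unadjusted p under 0.05 against 21.5% of all probe sets, 0 called by the intensity-trend and robust form, 1 without saline-infused replicate 3) and a median of -0.02. Kif4, a chromosome-bound kinesin, came nearest, with 410, 405 and 387 in the double knockout and 704, 735 and 539 in the saline-infused knockout (-0.71, 95% interval -1.22 to -0.19, adjusted p = 0.107).

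The 2 groups without gastrin were then averaged against the 2 groups with it, so that each side held 1 infused and 1 uninfused group. The uninfused part, the double knockout against wild type, differs in CCK as well as gastrin. In this average the loss of CCK therefore cannot be told apart from that of gastrin. Here 3 genes rose without gastrin and 0 fell, against 1.99% of all probe sets that rose and 2.59% that fell. Melk was higher by 1.15 (adjusted p = 0.0376), Anln by 0.99 (adjusted p = 0.0289) and Nusap1 by 0.80 (adjusted p = 0.0404). The median over the 38 was 0.46, and 3 genes, Bub1, Cdc25c and Kif20a, were below 0, against 48.8% of all probe sets. The count was 8 without double-knockout replicate 3 and 1 or 0 without any other single array. It was 0 with the Gapdh covariate, 5 with quantile normalization, 10 of the 25 genes kept with bright probe sets, and 12 with the trend form. Over all probe sets the count was 1037 in the main fit, 482 to 772 with 1 array left out and 634 to 1516 under the other settings. The 2 parts of this average had medians of different size. The median was -0.60 for gastrin against saline infusion, which runs with minus without gastrin. It was 0.20 for the double knockout against wild type, which runs without minus with gastrin. In both parts the median was thus on the side of higher values without gastrin. The difference between the 2 parts was tested as the interaction of gastrin and infusion, though CCK and genotype enter it too. That test called 0 of 38 in limma (0.8% of all probe sets), with 9 at an unadjusted p under 0.05 (15.3% of all probe sets). It called 0 by the intensity-trend and robust form, and the smallest adjusted p in limma was 0.0682, for Cdc25c within the noise. A difference between the 2 parts was therefore not shown for any single gene, and the p-values do not show that they were alike.

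Arrays within a group differed in a shared way. The median over the 38 genes of the log2 deviation from each gene's mean was -0.63, -0.42 and -0.53 on the gastrin-infused arrays, 0.30, 0.67 and -0.18 on the double-knockout arrays, -0.06, 0.34 and 0.38 on the saline-infused arrays, and 0.12, 0.07 and -0.07 on the wild-type arrays. Replicate 3 of the double knockout was the lowest of its group for 32 of the 38 genes and replicate 2 the highest for 34. Replicate 1 of the saline-infused group was the lowest of its group for 32. Among the 33 genes above noise on all arrays, the median correlation between pairs of genes across the 12 arrays, after each group's mean was taken out, was 0.62, and 92.2% of pairs were above 0. Over 11313 probe sets at or above the median brightness it was 0.1, with 58.6% of pairs above 0. This is a description over the same 12 arrays, which every pair shares.

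Markers of other cells and of RNA quality also differed between arrays. The summed intensity of 15 measured forestomach squamous markers was 7274, 31289 and 11543 on the gastrin-infused arrays, 51597, 9830 and 61601 on the double-knockout arrays, 64002, 18237 and 69560 on the saline-infused arrays, and 29811, 13910 and 11396 on the wild-type arrays. Against saline infusion 15 of 15 of these markers were below 0 with gastrin (49.2% of all probe sets), with a median of -1.42 and 4 called lower (0.473% of all probe sets). Against the double knockout 14 of 15 were below 0 (48.4% of all probe sets), with a median of -0.87 and 0 called lower (3.08%). Summed parietal markers (8 of 8 above noise on all arrays) were 198895 to 210410 with gastrin infusion, 127206 to 137395 in the double knockout, 135631 to 149825 with saline infusion and 189488 to 228636 in wild type. Summed markers of enterochromaffin-like cells, the endocrine cells that gastrin stimulates (4 measured, 3 above noise on all arrays), were 15200 to 22871 with gastrin infusion, 2854 to 3891 in the double knockout, 2806 to 3142 with saline infusion and 7609 to 13130 in wild type. Both sums did not overlap between the infused groups, nor between the gastrin-infused and double knockouts. The 6 isthmus and progenitor markers summed to 4047 to 4881 with gastrin infusion, 4292 to 5048 in the double knockout, 3474 to 3643 with saline infusion and 3688 to 3988 in wild type. Single members went both ways with gastrin against saline: Tnfrsf19 rose by 1.30 (adjusted p = 0.0273) and Sox2 fell by 0.71 (adjusted p = 0.0316). Sums of 5 intestinal markers were 1751 to 2024 with gastrin infusion, 2337 to 2758 in the double knockout, 2550 to 3013 with saline infusion and 2073 to 2619 in wild type, with Cdx1 and Cdx2 within noise on every array. T-cell, B-cell and myeloid sums of the gastrin- and saline-infused groups overlapped. Mast-cell sums were 1619 to 1916 with gastrin and 1915 to 2407 with saline infusion, so they met only at the edge. Of 6 mast-cell markers 6 were below 0 with gastrin against saline (49.2% of all probe sets), with a median of -0.36 and 0 called. The 1 mucous neck marker measured, Tff2, was 55673 to 57259 with gastrin and 65205 to 73062 with saline infusion, and was not called. The ratio of 3′ to 5′ Gapdh signal, a measure of RNA integrity, was 1.17 to 1.21 with gastrin infusion, 1.29 to 1.32 in the double knockout, 1.01 to 1.18 with saline infusion and 0.983 to 2.0 in wild type. The part of these cells and of RNA quality in the mitotic differences was not tested, beyond a fit with the Gapdh ratio as a covariate, which called 0 of 38 for gastrin against saline infusion, 2 for gastrin infusion against the double knockout and 0 for the average without against with gastrin. The medians over the 38 genes in that fit were -0.61, -0.84 and 0.45, against -0.60, -0.82 and 0.46 without the covariate.

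**Figure D5:**
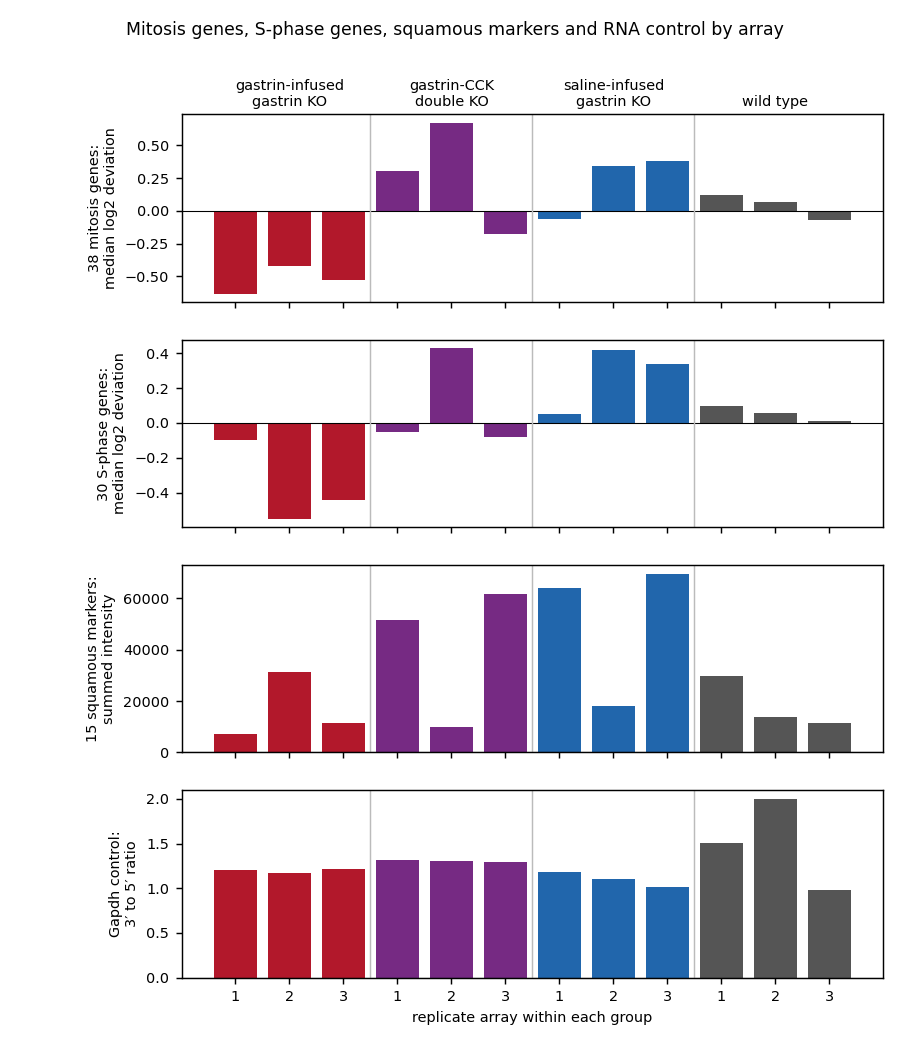
From top to bottom, for each of the 12 arrays: median log2 deviation of the 38 mitotic genes, the same for 30 S-phase genes, summed intensity of 15 squamous markers, and the 3′ to 5′ Gapdh ratio. The 3 gastrin-infused arrays have the lowest bars in the top panel (-0.63 to -0.42), while squamous sums vary within every group.

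Other lists of the cell cycle were read in the same fit. A second list of mitotic genes, 35 of 44 measured, had a median of -0.60 for gastrin against saline infusion. In that comparison 31 were below 0 (49.2% of all probe sets) and 1 fell (0.473%). It was Zwilch, a kinetochore protein whose gastrin-infused values were all within noise. Against the double knockout 4 of the 35 fell (3.08% of all probe sets). They were Zwilch, Cdca5, the cohesion protein sororin, Cdc25b, a phosphatase that activates cyclin-dependent kinases, and the condensin subunit Ncaph. In the average of groups without against with gastrin, 4 of the 35 rose (1.99% of all probe sets), namely Cenpm, Cdca5, Pttg1 and Zwilch. Cenpm, a centromere protein, also rose against wild type with saline infusion of the gastrin knockout (0.64, adjusted p = 0.0168). Pttg1, securin, had 1877, 2492 and 1958 with gastrin infusion, 4436, 5836 and 2792 in the double knockout, 2791, 4125 and 3630 with saline infusion, and 2430, 2359 and 2338 in wild type. Those values overlapped between the gastrin-infused knockout and wild type and were higher on all 6 arrays without gastrin.

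Genes of DNA replication act earlier in the cycle. Of 30 measured of 33, 28 were below 0 for gastrin against saline infusion (49.2% of all probe sets), with a median of -0.69. The 1 that fell (0.473% of all probe sets) was the S-phase transcription factor E2f1. E2f1 had 201, 227 and 211 with gastrin infusion, 318, 321 and 310 in the double knockout, 282, 384 and 369 with saline infusion, and 210, 265 and 265 in wild type, with all 6 arrays without gastrin above all 6 with it. It fell by 0.68 against saline (adjusted p = 0.0469) and by 0.57 against the double knockout (adjusted p = 0.0391), where Mcm4, a subunit of the replicative helicase, also fell (-0.82, adjusted p = 0.0451). Of 9 genes of the preceding growth phase (D-type cyclins and their kinases, Cdk2, Myc and E2f factors) 8 were measured. For gastrin against saline infusion their median was 0.16, with 3 below 0 (49.2% of all probe sets) and 0 past the threshold in limma. An unadjusted p under 0.05 was found for 1, against 16% of all probe sets. Ccnd2, cyclin D2, which starts the cycle, had 1900, 2507 and 2373 with saline infusion and 5015, 6428 and 4015 in wild type, and fell by 1.17 (adjusted p = 0.0406), the groups not overlapping. Of 18 measured genes of arrest and of the DREAM complex (20 listed), 0 passed for gastrin against saline infusion, with a median of -0.04. An unadjusted p under 0.05 was found for 4 of the 18, against 16% of all probe sets. Btg2, an antiproliferative gene, rose against wild type by 0.61 with saline infusion (adjusted p = 0.0264) and by 0.56 in the double knockout (adjusted p = 0.0256). It was the 1 gene of the 18 called in each, against 2.08% and 4.14% of all probe sets called in either direction. In the average of groups without against with gastrin 2 of the 18 rose (1.99% of all probe sets). They were Btg2 and Btg1, and Btg1 rose by 0.58 (adjusted p = 0.0247). Ccng1, a target of p53, was the one gene of this list called between the gastrin-infused and double knockouts, higher by 0.38 (adjusted p = 0.0368). Of all probe sets 2.75% rose in that comparison.

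Further probe sets of the same genes gave a partial check of the choice of the brightest. There were 28 of them on 18 genes, and for gastrin against saline infusion 24 were below 0 and 3 above. For gastrin infusion against the double knockout 23 were below and 3 above, and against wild type 21 below and 5 above. Of the 8 that were above noise on all 12 arrays, 6 were below 0 and 2 above against saline infusion, 7 and 1 against the double knockout, and 5 and 3 against wild type. The genes were also set out by promoter motif. For gastrin against saline infusion the median was -0.63 over 21 measured genes with a cell cycle homology region and -0.92 over 7 with a promoter window but no match. Both values are descriptions, and nothing about the factors that bind these motifs was measured.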

How the data were processed

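Per the labels, biotin-labelled targets were made from about 1 µg of total RNA. The deposited table gives 1 linear intensity per probe set and array in whole numbers, some below 0. How the authors scaled and summarised probes is not given in the sources used here. The table holds 22690 probe sets, of which 64 are controls and were removed. Values under 16 were raised to 16, and log2 of the deposited intensity was fitted with group means over all 12 arrays (limma 3.58.1, R 4.3.3, 8 residual degrees of freedom; tested on simulated data), and p-values were adjusted over 22626 probe sets (Benjamini-Hochberg, threshold 0.05). Platform annotation gave 1 symbol to 20380 probe sets, several to 691, and did not list 1555. Figures used Python 3.11.15 and matplotlib 3.10.9. The genes, lists and marker sets were chosen with earlier results of these data known. Per-array values are given for genes past the threshold, filled up to 12 by the smallest p without against with gastrin, and genes of other lists are named if past the threshold. Same-numbered arrays correlated over 0.1 in 5 of 18 pairs, so numbers were not taken as pairs. With 3 arrays a group, their number limits the precision.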

Additional observations from a re-analysis of the deposited data

How the results depend on the processing

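The fit with only bright probe sets held 25 of the 38 genes, without Anln, Melk and Aurkb, so its medians and counts are over those 25. The median log2 difference over the listed genes moved by less than the spread between arrays of a group (0.26) under every alternative run. Leaving out 1 array at a time it ranged from -0.74 to -0.56 for gastrin against saline infusion, -0.70 to -0.52 for gastrin infusion against wild type, -1.02 to -0.63 for gastrin infusion against the double knockout, 0.12 to 0.37 for saline infusion against wild type, -0.02 to 0.42 for the double knockout against wild type, -0.24 to 0.21 for the double against the saline-infused knockout, 0.37 to 0.56 without against with gastrin, and -0.75 to -0.34 for the interaction. Counts of genes called were far less stable. Counts over all probe sets moved too, for gastrin against saline infusion from 282 to between 20 and 732 under settings that kept all arrays. Leaving out 1 array, the counts of the 38 genes ranged from 0 to 5 for gastrin against saline infusion and 1 to 15 for gastrin infusion against the double knockout. They ranged from 0 to 8 without against with gastrin, 0 to 0 for the interaction, and 0 to 1 for each of the other 4 comparisons. For gastrin against saline infusion the count of 2 became 0 with the Gapdh covariate, 0 with only the groups compared, 0 with the replicate block, 1 with a floor of 1, 4 with quantile normalization, 9 with only bright probe sets and 11 with the intensity-trend and robust form. Against the double knockout the count of 8 became 1 with only the groups compared, 2 with the covariate, 5 with median centring, 5 with the mean of all probe sets, 15 with bright probe sets and 18 with the trend form, and it was 8 with the replicate block. Without against with gastrin the count of 3 became 0 with the covariate, 5 with quantile normalization, 10 with bright probe sets and 12 with the trend form, and was 3 with the block. The 1 call of the double knockout against wild type (Cdc25c) was 0 with floors of 1 and 64, bright probe sets, only the groups compared and the block. Bright probe sets gave 1 call for the double against the saline-infused knockout and 1 for the interaction. The causes of these moves were not tested, apart from fewer probe sets or arrays entering those fits by construction. Of 14 calls, 1 (Aurkb against the double knockout) passed with every array left out in turn, and 0 reversed under any setting. The fit with only the groups compared does not exist for the average and the interaction, which use all 4 groups. Same-numbered samples correlated between -0.357 and 0.506, and samples of other numbers between -0.38 and 0.424, so the replicate block rests on numbers alone. A low signal limits Cdc25c, Melk, Bub1, Cenpe and Kif20a, each within noise on at least 1 array.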
